A study of Rattus norvegicus with 42 samples.

Results

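The distal sites described here are regions of rat liver chromatin at which glucocorticoid receptor (GR) had a called peak at the top of a corticosterone (CORT) pulse and no called peak during constant infusion. Of 3981 GR regions in the data, 3507 lay more than 1000 b from the nearest transcription start site (TSS), and 1020 of these overlapped a PEAK_140 peak by at least 1 b and no peak of CONS_140 or CONS_180. They are compared below with the 1912 distal sites that had a peak both at PEAK_140 and during constant infusion (shared distal sites) and, briefly, with the 499 distal sites that had a peak during constant infusion and not at PEAK_140. The sites were thus chosen by the authors' peak calls on the PEAK_140, CONS_140 and CONS_180 libraries, so the GR values at PEAK_140, CONS_140 and CONS_180 are given as a description and no test of them is used as support.

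GR is a nuclear receptor that moves to chromatin when it binds CORT, the main glucocorticoid of the rat, and it leaves chromatin again as the hormone is cleared. It acts largely at enhancers away from promoters, in hepatocytes alongside factors such as C/EBP, FOXA and HNF4A, and it can raise or lower transcription of nearby genes. Glucose production, amino acid breakdown and the metabolism of fatty acids and sterols are among its well known liver programmes. RNA polymerase II phosphorylated at serine 2 of its tail (pSer2 Pol2) is the elongating form of the enzyme, and its density over a gene is read as ongoing transcription, whereas RNA-Seq reads the RNA that has accumulated.

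All animals were adrenalectomised male Sprague Dawley rats, so that circulating CORT came from the infusion, and all samples were whole liver. In pulsatile infusion (PULS) CORT was given for 20 min in every 60 min, and livers were taken at 140 min, at the top of a pulse (PEAK_140), or at 180 min, at the nadir before the next one (NADIR_180). In constant infusion (CONS) a matched dose ran without a break, and livers were taken at 140 min (CONS_140) or 180 min (CONS_180), while vehicle animals (VEH) received the carrier in pulses and contributed 1 ChIP library at 140 min and 1 at 180 min, called VEH replicates 1 and 2 here. Each antibody had 2 ChIP-Seq libraries per group, each pooling 6 rats, and RNA-Seq had 3 libraries in each of 4 groups at 180 min, namely pulsatile CORT (PULS_CORT), constant CORT (CONS_CORT), pulsatile vehicle (PULS_VEH) and constant vehicle (CONS_VEH). All p-values below measure the spread between these few libraries. By their titles, the pulsatile CORT ChIP libraries have lower numbers than those of VEH and CONS, and the CORT RNA libraries lower numbers than vehicle. What the numbers stand for is not given, and anything that goes with them cannot be told apart from these groups.

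Depth ranged from 2051977 to 6715803 tags over the 10 GR libraries, from 4938473 to 9326927 tags over the 10 pSer2 Pol2 libraries and from 3956379 to 7777219 reads over the 12 RNA libraries. The PEAK_140 GR libraries had 2568317 and 2051977 tags and CONS_140 replicate 1 had the most. Over all 3981 regions the NADIR_180 GR libraries stood apart from each other, with medians of 1.33 and -0.48 on the log2 scale, and CONS_140 replicate 2 lay below replicate 1 in both assays, with GR medians of 2.99 and 3.73. In RNA all 10 hepatocyte markers had enough reads to test, with a summed level of 150610 to 204132 CPM (reads scaled to library size), against 326 to 591 CPM for 7 of 8 Kupffer cell, 311 to 426 for 7 of 8 endothelial, 170 to 305 for 7 of 8 stellate cell, 137 to 256 for 3 of 6 lymphocyte and red cell, and 10.5 to 19.0 for 4 of 6 cholangiocyte markers. In whole liver, fewer cells of a type and less RNA per cell cannot be told apart.

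The sequences below are promoters of 5 genes nearest a site, shown because their pSer2 Pol2 values are described further on, with calls at PEAK_140 upward for Orm1, Slc38a2 and Tsc22d3 and downward for Fads1 and Fads2. They are the 250 bases before the RefSeq start in the assembly GRCr8, which differs from rn6, the build of all other coordinates. RefSeq promoters were matched by symbol for 20 of the 34 nearest genes whose pSer2 Pol2 changed at PEAK_140. Each was searched on both strands for a palindromic glucocorticoid response element (GNACA, any 3 bases, then TGTNC), the single arm TGTTCT, TTGCNNAA for C/EBP, TGTTTAC for FOX factors and TTCNNNGAA for STAT5, and capitals mark a match.
Orm1, chr5:81788259-81788508, plus strand: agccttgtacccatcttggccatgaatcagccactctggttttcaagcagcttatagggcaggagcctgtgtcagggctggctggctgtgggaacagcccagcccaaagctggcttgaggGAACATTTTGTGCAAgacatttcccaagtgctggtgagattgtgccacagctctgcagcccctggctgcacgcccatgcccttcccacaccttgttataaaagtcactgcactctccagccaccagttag
Slc38a2, chr7:129742620-129742869, minus strand: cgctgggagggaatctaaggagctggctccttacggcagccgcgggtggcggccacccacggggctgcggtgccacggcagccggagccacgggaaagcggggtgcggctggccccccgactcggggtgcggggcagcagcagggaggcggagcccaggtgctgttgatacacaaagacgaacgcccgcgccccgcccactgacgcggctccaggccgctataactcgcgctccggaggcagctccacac
Tsc22d3, chrX:109010035-109010284, minus strand: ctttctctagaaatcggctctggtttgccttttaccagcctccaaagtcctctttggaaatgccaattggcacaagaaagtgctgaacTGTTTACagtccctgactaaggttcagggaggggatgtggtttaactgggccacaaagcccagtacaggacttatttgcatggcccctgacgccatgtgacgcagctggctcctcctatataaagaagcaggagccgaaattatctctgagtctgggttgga
Fads1, chr1:216252442-216252691, plus strand: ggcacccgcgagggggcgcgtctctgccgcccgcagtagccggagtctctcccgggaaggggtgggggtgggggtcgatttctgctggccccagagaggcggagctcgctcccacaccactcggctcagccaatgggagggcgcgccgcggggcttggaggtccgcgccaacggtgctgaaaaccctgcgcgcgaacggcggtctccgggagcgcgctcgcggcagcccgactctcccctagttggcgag
Fads2, chr1:216172034-216172283, minus strand: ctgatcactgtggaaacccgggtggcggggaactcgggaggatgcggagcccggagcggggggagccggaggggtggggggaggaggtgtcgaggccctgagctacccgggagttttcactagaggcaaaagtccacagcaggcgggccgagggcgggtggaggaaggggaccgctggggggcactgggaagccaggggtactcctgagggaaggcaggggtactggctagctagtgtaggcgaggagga
The Orm1 window held a palindromic response element that overlaps a C/EBP match on the same stretch, and such an element was in 125 of 33469 RefSeq promoters of this length (0.373%). No other window of the 20 genes held such an element. The Tsc22d3 window, 1 of 3 RefSeq starts for this gene, held a FOX match, as did 3.21% of all promoters. The windows at the other Tsc22d3 starts held no match to any of the letters. The other 3 windows held none of these letters, whose shares in all promoters were 17.5% for TGTTCT, 9.22% for C/EBP and 7.67% for STAT5. A match is a description of letters and not of a bound factor, and the sequences of the GR sites themselves were not analysed here.

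The 1020 sites lay on 22 chromosomes, most often on chromosomes 1 (109 sites), 2 (96) and 4 (91). By the deposited annotation 554 (54.3%) were intergenic, 438 (42.9%) intronic, 16 (1.57%) at a transcription termination site and 12 (1.18%) exonic, and 156 (15.3%) were in a first intron. The shared distal sites had nearly the same makeup, with 54.7% intergenic, 41.4% intronic, 2.04% at a termination site and 1.83% exonic. The median distance to the nearest TSS was 19606 b, against 19557 b for shared sites and 12540 b for those without a PEAK_140 peak. A distance of 1000 to 5000 b was found for 176 sites (17.3%), 5000 to 10000 b for 161 (15.8%), 10000 to 50000 b for 435 (42.6%), 50000 to 100000 b for 144 (14.1%) and more than 100000 b for 104 (10.2%), up to 526620 b. Upstream of the TSS lay 452 sites (44.3%), the same share as for shared sites (44.2%).

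Some of the sites stood beside a shared site. The nearest shared distal site was within 5000 b for 130 (12.7%), within 10000 b for 177 (17.4%) and within 50000 b for 353 (34.6%), with a median of 156325 b, while shared sites lay a median of 97859 b from each other. The sites had 927 nearest genes, of which 844 had 1 site, 75 had 2, 7 had 3 and 1, Eif1a, had 5. Of these genes 596 were nearest to no other GR region and 331 also to a region outside the set, 272 of them to a shared distal site. A site within 10000 b was present for 328 genes. At the distance limit, the sites just inside were near Snx24 (-1011 b) and Lnx2 (1014 b), with PEAK_140 values of 3.67 and 2.93 and of 3.59 and 4.32, and the regions just outside were near Angptl2 (999 b) and Pdk4 (-989 b), with values of 3.17 and -0.41 and of 3.94 and 4.12.

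All 1020 regions were 396 b wide, the width of a PEAK_140 peak, whereas shared regions were 528 to 1354 b wide (median 626 b) since each group's peaks had a width of their own. Tags were counted over these widths, so levels at the 2 kinds of site are not on the same footing, while groups at one site share a width. The size of a difference can still depend on width and tag number when the 2 kinds of site are compared, which was not tested. The median standard error of a difference from VEH was 0.93 at the sites and 0.80 at shared sites. PEAK_140 had 3210 peaks, CONS_140 1723, CONS_180 2428, NADIR_180 73 and VEH 118. Of the 1020 sites, 6 overlapped a NADIR_180 peak and 4 a VEH peak.

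GR at these sites was high at the pulse peak, intermediate during constant infusion, and close to vehicle at the nadir. The median GR value over the sites, on the deposited log2 scale, was -0.82 and -0.96 in the VEH libraries, 3.41 and 3.08 at PEAK_140, -0.58 and -0.61 at NADIR_180, 2.41 and 1.28 at CONS_140, and 2.00 and 1.76 at CONS_180. Both PEAK_140 medians lay above those of all other libraries, and the 4 CONS medians lay above all VEH and NADIR_180 medians. The CONS groups therefore carried GR signal at sites where no CONS peak was called. Site by site, the median difference from VEH was 3.80 at PEAK_140 (quartiles 3.07 and 4.38), 2.17 at CONS_140 (1.28 and 3.18), 2.18 at CONS_180 (1.34 and 2.98) and 0.24 at NADIR_180 (0.16 and 1.18). Shared sites had larger differences in every group, of 5.08, 4.49, 4.40 and 1.29. Centring on library medians, which removes a rise shared by most regions, turned the 4 medians at the sites negative, to -0.82 (PEAK_140), -1.94 (CONS_140), -1.88 (CONS_180) and -0.94 (NADIR_180). Values are drawn towards the mean of a site where tags are few, so differences from VEH are fitted values and not bounds.

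**Figure D1:**
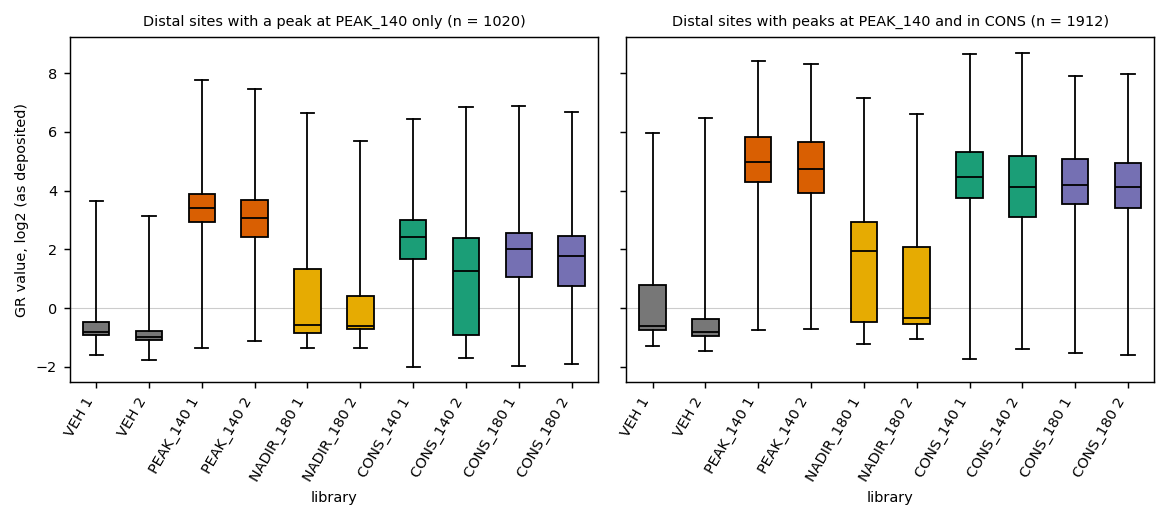
GR values on the deposited log2 scale in each of the 10 libraries, at the 1020 distal sites with a peak at PEAK_140 only (left) and at the 1912 shared distal sites (right). Boxes span the quartiles with the median as a line, and whiskers reach the lowest and highest site, with the PEAK_140 medians of the left panel at 3.41 and 3.08 and the CONS medians between 1.28 and 2.41.

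The mean of PEAK_140 was the highest of the 5 groups at 903 sites, that of CONS_140 at 70, of CONS_180 at 26, of NADIR_180 at 14 and of VEH at 7. PEAK_140 also had the highest mean at 2501 of all 3981 regions and at 1351 of the 1912 shared sites. PEAK_140 exceeded CONS_140 by a median of 1.38 and CONS_180 by 1.47, against 0.55 and 0.66 at shared sites. Both PEAK_140 libraries lay above both CONS_140 libraries at 692 sites (67.8%) and above both CONS_180 libraries at 766 (75.1%), and the group mean was higher in CONS_140 than in PEAK_140 at 91 sites and in CONS_180 at 51. The shares with both PEAK_140 libraries above were 44.9% and 52.7% over all regions and 49.0% and 58.2% at shared sites. The sites were chosen from these same libraries, so nothing is read from the counts. CONS_140 and CONS_180 differed by a median of 0.15. The replicates of a group differed by a median of 0.57 at PEAK_140, 1.06 at CONS_140, 0.85 at CONS_180, 0.89 at NADIR_180 and 0.16 in VEH. Sites with a value below 0 numbered 34 and 339 in the CONS_140 libraries, of 6715803 and 3663062 tags, 125 and 165 in CONS_180, 20 and 79 at PEAK_140, 529 and 758 at NADIR_180 and 770 and 862 in VEH. The part of depth in these values was not tested.

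As a description, limma with Benjamini-Hochberg adjustment put 868 of the 1020 sites (85.1%) above VEH at PEAK_140, where 78.6% of all regions passed, 450 (44.1%) at CONS_140, where 64.7% passed, and 449 (44.0%) at CONS_180, where 67.9% passed. Here and below a feature is called where its adjusted p is under 0.05 and it changed by over 1.5-fold. These shares come from the contrasts that chose the sites and nothing is read from them.

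The sites with the largest PEAK_140 signal over VEH included sites near Hp and Adh6a as well as near gene models with no named function. An intergenic site 11000 b upstream of Hp, which encodes the haemoglobin scavenger haptoglobin (chr19:42086798-42087193), had values of -1.03 and -1.21 in VEH, 5.94 and 4.72 at PEAK_140, -0.96 and -0.80 at NADIR_180, 3.53 and 1.09 at CONS_140, and 1.5995 and 2.63 at CONS_180. Both PEAK_140 libraries lay above the other 8, and a shared site stood 910 b away. At a site 2021 b upstream of LOC299282 (chr6:128071126-128071521) the values were -0.63 and -0.82 in VEH, 5.66 and 5.69 at PEAK_140, 1.98 and 3.11 at NADIR_180, 3.57 and 2.09 at CONS_140, and 4.77 and 4.06 at CONS_180, so GR stayed above VEH at the nadir there. The site near Adh6a, an alcohol dehydrogenase gene (-6653 b), had 4.45 and 5.03 at PEAK_140 and split values of 3.52 and -1.28 at CONS_180. The site near Asb13 (57525 b) had 4.605 and 5.09 at PEAK_140, 2.95 and 2.01 at CONS_140 and 2.36 and 2.80 at CONS_180. The other 4 of the 8 were near AABR07062157.1, AABR07010589.1, Fer1l5 and AABR07058729.1, with PEAK_140 differences from VEH of 5.68 to 6.26, against 6.44 for Hp.

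**Figure D2:**
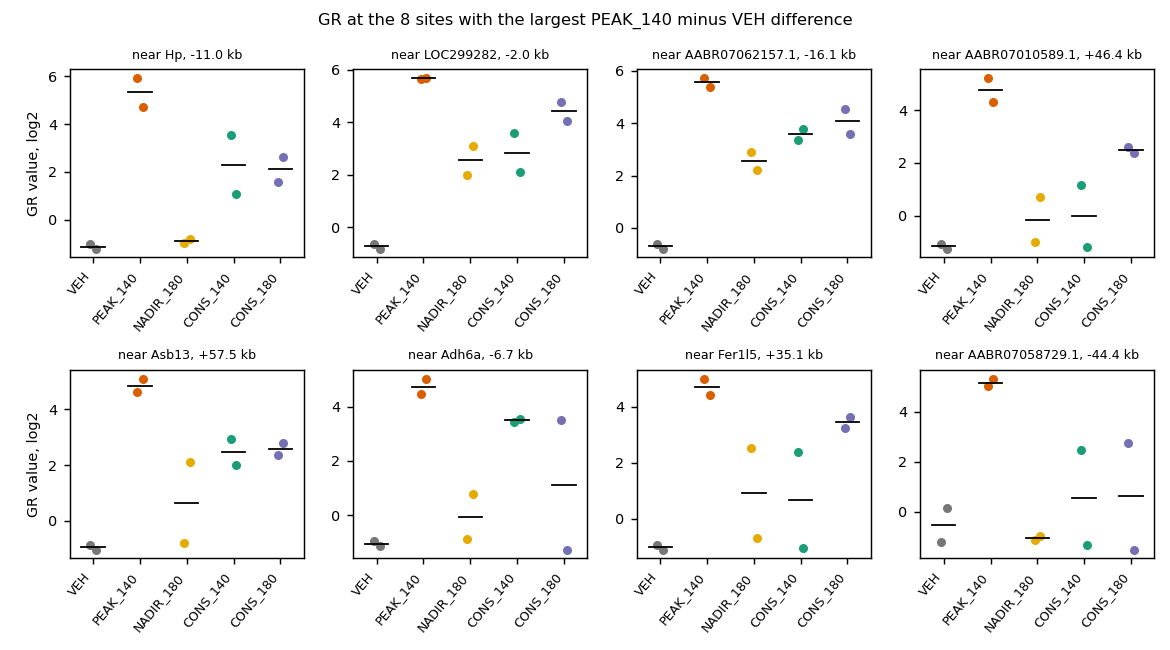
GR values (log2) in the 2 libraries of each of the 5 groups at the 8 sites with the largest PEAK_140 minus VEH difference, with the distance from the TSS of the nearest gene in kb above each panel. Points are libraries and lines group means, and at the Hp site the PEAK_140 points (5.94 and 4.72) lie above all others.

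The nadir was the only GR contrast that the choice of sites did not use directly, although the drawing of values to the site mean ties it to the others. Of the 1020 sites 11 (1.08%) were raised at NADIR_180 over VEH and 0 were lowered (limma, Benjamini-Hochberg), with 59 at an unadjusted p below 0.05, where 7.44% of all 3981 regions were raised and 0.352% lowered, and where 259 of 1912 shared sites (13.5%) were raised. With quantile normalization 2 of the sites were raised and 3 lowered. The count was 2 without VEH replicate 1, 1 without VEH replicate 2, 6 without either PEAK_140 library, 28 without NADIR_180 replicate 2, 6 without CONS_180 replicate 1 and 7 without CONS_180 replicate 2. In simulated data at this size of experiment, GR differences of 1 to 2 between NADIR_180 and VEH were recovered at 0% of 200 changed regions and differences of 3 to 5 at 49.5%. The simulation left all other regions unchanged, whereas 296 of 3981 were raised in the data, so its shares need not hold there. Some differences below 3 were called in the data, and how much nadir signal was missed is not known.

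The largest nadir difference was at an intergenic site 1466 b from AABR07012587.1 (chr2:198589992-198590387), with -0.55 and -0.75 in VEH, -0.31 and 5.13 at PEAK_140, 6.64 and 5.70 at NADIR_180, 5.61 and 5.62 at CONS_140, and 2.80 and 4.50 at CONS_180. There the nadir libraries were the highest and PEAK_140 replicate 1 was at the VEH level, a difference of 6.82 (SE 1.46, adjusted p = 0.022 from limma). In an intron of Rora, the clock-linked nuclear receptor gene (22748 b, chr8:75539455-75539850), the values were -0.66 and -0.81 in VEH, 2.92 and 2.09 at NADIR_180 and 3.99 and 2.70 at PEAK_140, and the nadir difference was 3.24 (SE 0.70, adjusted p = 0.023 from limma). All 4 CORT groups lay above both VEH libraries at the Rora site. LOC299282 (3.27), AABR07062157.1 (3.25) and RF00560 (2.71) were also among the largest.

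Elongating Pol2 over the nearest genes moved in both directions at the pulse peak. Most of the raised genes also had another GR region while most of the lowered genes had none, a difference between classes that was not tested. Of 627 nearest genes with pSer2 Pol2 values that vary, 19 (3.03%) were raised and 15 (2.39%) lowered at PEAK_140 over VEH (limma, Benjamini-Hochberg), where 0.38% and 0.634% of all 16568 genes were. Among the 249 with a further GR region 18 (7.23%) were raised and 4 (1.61%) lowered. Among the 378 with PEAK_140-only sites and no other GR region 1 (0.265%) was raised and 11 (2.91%) lowered, against 8 raised (0.0548%) and 63 lowered (0.431%) of 14605 genes near no GR region and 30 raised (3.46%) and 16 lowered (1.84%) of 868 genes with a shared distal site and none of the sites described. Genes with a site within 10000 b gave 13 raised and 8 lowered of 254, and those with sites farther off 6 and 7 of 373. The numbers raised and lowered fell to 4 and 0 without PEAK_140 replicate 1, to 4 and 4 without replicate 2, to 12 and 0 without VEH replicate 1, to 2 and 0 without VEH replicate 2, and to 0 and 0 when the 4 libraries compared were fitted alone. They were 37 and 22 after centring on library medians, 40 and 23 with quantile normalization and 23 and 21 with replicate numbers as a block.

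**Figure D3:**
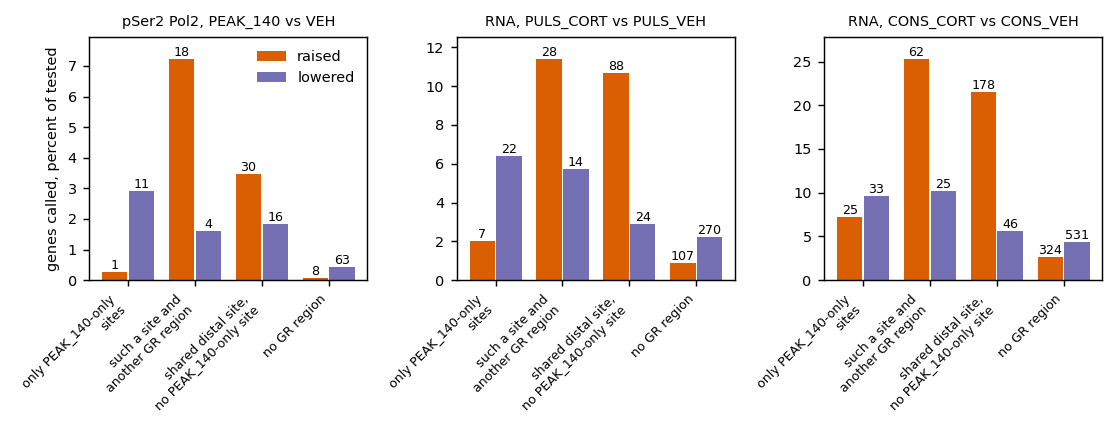
Percent of tested genes raised (orange) and lowered (violet) in pSer2 Pol2 at PEAK_140 over VEH and in RNA under pulsatile and constant CORT, for genes nearest only PEAK_140-only distal sites, such a site and another GR region, a shared distal site without such a site, and no GR region. Numbers above the bars are genes, the y axes differ between panels, and in the left panel genes with only such sites show 1 raised and 11 lowered.

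The raised genes included Sds, Tsc22d3, Mfsd2a and Slc38a2. Sds, which encodes serine dehydratase, the enzyme that turns serine into pyruvate for glucose production, has its site at -2020 b (chr12:41629564-41629959) and a further GR region at its promoter, and a shared distal site lies within 5000 b. The pSer2 Pol2 values over Sds were 7.75 and 7.09 in VEH, 11.16 and 10.56 at PEAK_140, 7.93 and 7.49 at NADIR_180, 10.11 and 9.80 at CONS_140, and 9.82 and 9.41 at CONS_180. The PEAK_140 libraries were the highest, the CONS libraries came next, and the nadir overlapped VEH, with a PEAK_140 difference of 3.44 (SE 0.357, adjusted p = 0.0014 from limma) that was 3.11 and no longer called without VEH replicate 2. GR at the Sds site was -1.05 and -1.20 in VEH, 3.48 and 4.06 at PEAK_140, -0.99 and -0.84 at NADIR_180, 2.19 and -1.16 at CONS_140, and 1.72 and 2.54 at CONS_180. PEAK_140 was highest there, an order that the choice of sites favours and that is not read as agreement with Pol2.

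Tsc22d3, the gene of the glucocorticoid-induced leucine zipper protein GILZ, has sites at -1858 b and -25392 b. Its pSer2 Pol2 values were 5.64 and 5.71 in VEH, 9.18 and 8.99 at PEAK_140, 6.04 and 6.12 at NADIR_180, 10.15 and 9.52 at CONS_140, and 8.94 and 8.53 at CONS_180. Here CONS_140 was highest and the nadir lay just above VEH, with a PEAK_140 difference of 3.41 (SE 0.332, adjusted p = 0.0012 from limma). For Mfsd2a, a lysophospholipid transporter, the values were 8.15 and 7.65 in VEH, 11.14 and 10.85 at PEAK_140, 8.38 and 8.35 at NADIR_180, 11.73 and 11.29 at CONS_140, and 10.74 and 10.57 at CONS_180, again with the nadir close to VEH (PEAK_140 difference 3.09, SE 0.293, adjusted p = 0.0012 from limma). The calls of Tsc22d3 and Mfsd2a held without any 1 of the 4 libraries compared. The site of Mfsd2a, at -16636 b, had GR values of 6.33 and 5.33 at PEAK_140 and between 4.94 and 5.57 in the 4 CONS libraries.

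Slc38a2, which encodes an amino acid transporter of the plasma membrane and was chosen after its values were seen, was the 1 raised gene with no other GR region. Its site, in an intron 2924 b from the TSS (chr7:138097720-138098115), had GR values of -0.84 and -1.01 in VEH, 4.68 and 3.92 at PEAK_140, 0.66 and -0.61 at NADIR_180, 2.83 and 2.71 at CONS_140, and 3.15 and 3.15 at CONS_180. Its pSer2 Pol2 values were 8.01 and 7.87 in VEH, 10.21 and 9.99 at PEAK_140, 8.46 and 8.31 at NADIR_180, 10.28 and 9.95 at CONS_140, and 9.44 and 9.15 at CONS_180. Both measures lay lower at the nadir than at PEAK_140, and Pol2 at CONS_140 overlapped PEAK_140 (PEAK_140 difference 2.16, SE 0.288, adjusted p = 0.0055 from limma). The call was lost without PEAK_140 replicate 1 (2.04), without VEH replicate 2 (2.09) and with only the 4 libraries compared (2.16).

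**Figure D4:**
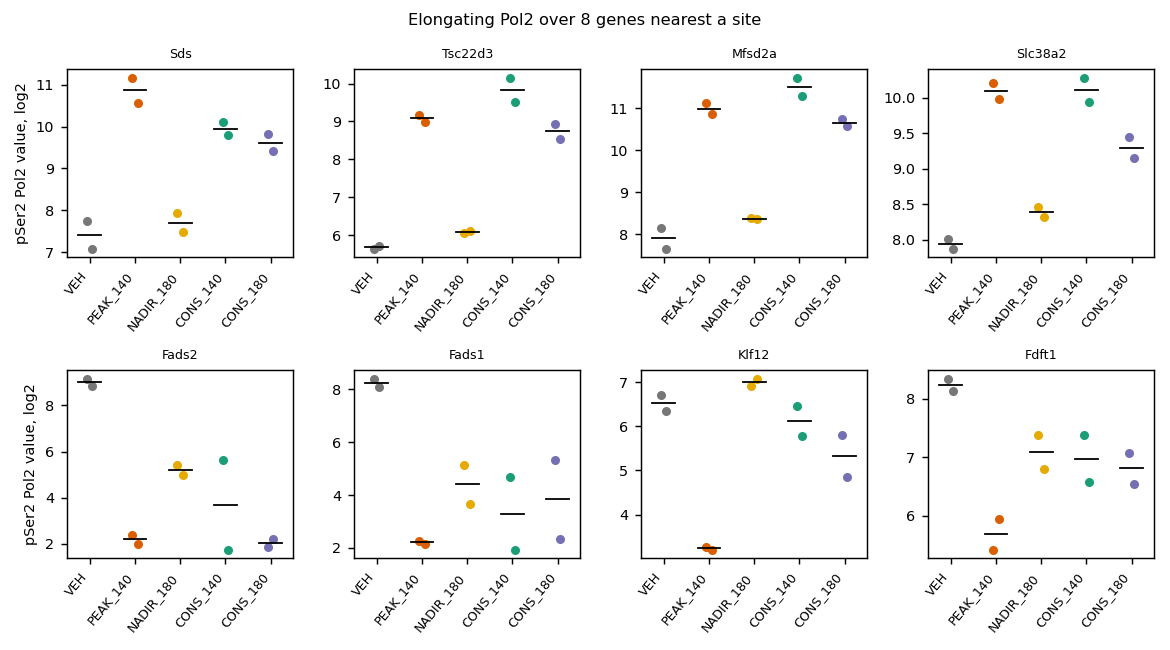
pSer2 Pol2 values (log2) in the 2 libraries of each of the 5 groups over 4 genes raised (top) and 4 genes lowered (bottom) at PEAK_140 relative to VEH. Points are libraries and lines group means, and the PEAK_140 points of Sds (11.16 and 10.56) and of Fads2 (2.38 and 2.01) lie on opposite sides of VEH.

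Further raised genes named by size of change were AABR07044148.1 (4.18), LOC100365958 (3.21), AABR07027072.1 (3.20), Orm1 (3.17), Enc1 (3.16), Nampt (2.95) and Nnmt (2.85). Orm1 encodes the acute phase protein alpha-1-acid glycoprotein, and its pSer2 Pol2 stayed up at the nadir, with 6.34 and 5.65 in VEH, 8.90 and 9.43 at PEAK_140 and 7.89 and 8.46 at NADIR_180, although the nadir difference was not called. Nampt and Nnmt take part in nicotinamide metabolism, the former by recycling nicotinamide to NAD and the latter by methylating it. Without VEH replicate 2 all 7 were no longer called, at 3.19 for AABR07044148.1, 2.37 for LOC100365958, 2.58 for AABR07027072.1, 2.83 for Orm1, 1.81 for Enc1, 2.53 for Nampt and 2.17 for Nnmt, and all 7 calls were also lost without either PEAK_140 library.

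The lowered genes with the largest changes included both fatty acid desaturase genes and genes of sterol synthesis. Fads2 and Fads1 encode the delta-6 and delta-5 desaturases that make long polyunsaturated fatty acids and neighbour each other on chromosome 1. Over Fads2 the pSer2 Pol2 values were 9.16 and 8.85 in VEH, 2.38 and 2.01 at PEAK_140, 5.43 and 4.99 at NADIR_180, 5.63 and 1.74 at CONS_140, and 1.85 and 2.22 at CONS_180. All 8 CORT libraries lay below both VEH libraries (PEAK_140 difference -6.81, SE 0.879, adjusted p = 0.0046 from limma). Over Fads1 they were 8.40 and 8.08 in VEH, 2.26 and 2.17 at PEAK_140, 5.15 and 3.68 at NADIR_180, 4.67 and 1.93 at CONS_140, and 5.33 and 2.35 at CONS_180, again with VEH above all others (PEAK_140 difference -6.03, SE 0.95, adjusted p = 0.011 from limma). Both calls were lost without any 1 of the 4 libraries, with differences of -6.62 to -6.99 for Fads2 and -5.87 to -6.18 for Fads1. At PEAK_140 the library medians over all pSer2 regions that vary were 2.38 and 2.36. Both genes thus read at or below the median region there, and the size of each fall is uncertain.

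The PEAK_140 difference from VEH in GR was 1.91 at the Fads2 site and 3.08 at the Fads1 site, both below the median of all 1020 sites (3.80). The Fads2 site, 26856 b upstream, had GR values of 1.74 and 0.55 in VEH, 2.93 and 3.18 at PEAK_140 and 2.64 and 1.61 at CONS_140. The Fads1 site, in an intron of the gene 5963 b from its TSS (chr1:226239840-226240235), had -0.66 and -0.76 in VEH, 2.13 and 2.62 at PEAK_140, -0.62 and 1.42 at NADIR_180, and 2.55 and 0.48 at CONS_140. PEAK_140 did not lie above all CONS libraries at the Fads1 site, where CONS_180 read 2.83 and 1.79.

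Cyp51, the lanosterol demethylase gene, had pSer2 Pol2 values of 6.84 and 6.28 in VEH and 3.02 and 2.99 at PEAK_140 (-3.56, SE 0.684, adjusted p = 0.034 from limma). Fdft1, which encodes squalene synthase and has its site in an intron 4494 b from the TSS, had 8.34 and 8.14 in VEH, 5.42 and 5.94 at PEAK_140, 7.38 and 6.80 at NADIR_180, and 6.55 to 7.39 in the CONS libraries (-2.56, SE 0.398, adjusted p = 0.011 from limma). PEAK_140 was lowest of the 5 groups for Fdft1, without overlap. Over a region of the repressor gene Klf12 (chr15:84738525-84748525) the values were 6.71 and 6.34 in VEH, 3.27 and 3.20 at PEAK_140, 6.92 and 7.08 at NADIR_180, 6.46 and 5.78 at CONS_140, and 5.80 and 4.84 at CONS_180, so PEAK_140 was lowest and overlapped no other group (-3.29, SE 0.39, adjusted p = 0.0032 from limma). A second Klf12 region with a higher mean read 5.85 and 6.19 at PEAK_140 and 6.55 and 6.07 in VEH, so the change did not hold over every annotated transcript. The calls of Cyp51 and Fdft1 were lost without any 1 of the 4 libraries, at -3.28 to -3.84 and -2.30 to -2.82, and no Klf12 region was called without PEAK_140 replicate 1 or without either VEH library, where the second region read -0.12, -0.05 and -0.53.

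The other named genes lowered at PEAK_140 were Nfe2l2 (-2.38), a regulator of antioxidant genes, the transporter gene Slc17a2 (-2.33), the glucuronosyltransferase gene Ugt1a7c (-2.31), the peptidase gene Pgpep1 (-2.27) and Ugp2 (-2.25), the UDP-glucose pyrophosphorylase gene of glycogen synthesis. Over Nfe2l2 the values were 9.30 and 9.24 in VEH, 6.96 and 6.81 at PEAK_140 and 8.47 and 8.38 at NADIR_180, with no overlap between these groups. Ugt1a7c shares exons with its neighbours in the Ugt1a cluster, so its value is uncertain. The calls of all 5 were lost without PEAK_140 replicate 1 or either VEH library, with the smallest differences at -2.31, -1.74, -1.55, -2.05 and -2.12 in the order given, that of Ugt1a7c being over another of its regions.

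Few nearest genes were called at the nadir. Of the 627 genes, 0 were raised in pSer2 Pol2 and 1, Insig1, was lowered at NADIR_180 (limma, Benjamini-Hochberg), with 29 at an unadjusted p below 0.05, where 0% and 0.00604% of all genes were called. Insig1, whose protein holds back the activation of sterol synthesis, had 10.22 and 10.01 in VEH, 10.62 and 10.84 at PEAK_140, 7.61 and 7.49 at NADIR_180, 10.95 and 10.64 at CONS_140, and 10.51 and 10.22 at CONS_180, and the nadir libraries lay below the other 8 (-2.57, SE 0.271, adjusted p = 0.022 from limma). The call was lost without NADIR_180 replicate 1 (-2.63) and without either VEH library (-2.46 and -2.67), and 4 genes were raised without NADIR_180 replicate 2.

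Between PEAK_140 and NADIR_180, 15 genes were higher and 3 lower at the peak, where 0.26% and 0.247% of all genes were (limma, Benjamini-Hochberg). The largest differences were those of AABR07044148.1 (4.68), Insig1 (3.18), Sds (3.15), Tsc22d3 (3.00), Mfsd2a (2.63) and AABR07048475.1 (2.30), and the lower genes were Klf12 (-3.76), the hepatic uptake transporter gene Slco1b2 (-2.21) and the protease inhibitor gene Pzp (-1.54). For Slco1b2 the values were 8.67 and 8.51 in VEH, 6.47 and 6.23 at PEAK_140, 8.37 and 8.75 at NADIR_180, 8.62 and 8.70 at CONS_140, and 8.23 and 8.36 at CONS_180, so PEAK_140 was the 1 group that stood apart. The numbers higher and lower were 1 and 0 without PEAK_140 replicate 1, 9 and 2 without replicate 2, 0 and 0 without NADIR_180 replicate 1 and 9 and 6 without replicate 2. Without NADIR_180 replicate 1 the differences in the order named were 5.28, 3.24, 3.37, 2.96, 2.64, 2.66, 0.38 over another Klf12 region, -2.40 and -1.49.

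During constant infusion 20 nearest genes (3.19%) were raised and 7 (1.12%) lowered in pSer2 Pol2 at CONS_140 over VEH, where 0.646% and 0.175% of all genes were (limma, Benjamini-Hochberg). With quantile normalization the split was 26 raised and 31 lowered, and the median change over all genes was 0.15, against which these values are read. AABR07044148.1, Tsc22d3 (4.16), Mfsd2a (3.61), LOC100365958 and AABR07027072.1 were among the genes that rose most. The lowered genes included Fads2 (-5.32), Fads1 (-4.94), Nrep (-4.76), Socs2 (-3.99), Igf1 (-2.30) and Pzp (-1.96). Igf1 encodes the growth factor that liver releases under growth hormone, and Socs2 a brake on growth hormone signalling. The pSer2 Pol2 values over Igf1 were 10.63 and 10.42 in VEH, 9.94 and 10.28 at PEAK_140, 8.99 and 8.23 at NADIR_180, 8.39 and 8.08 at CONS_140, and 9.83 and 9.59 at CONS_180, lowest at CONS_140, where they overlapped NADIR_180. Over Socs2 CONS_140 read 4.88 and 2.63 where all other libraries read 6.05 to 8.31. The number raised was 3 without CONS_140 replicate 1, 110 without replicate 2 and 2 without VEH replicate 2, and the number lowered was 3 without CONS_140 replicate 1 and 0 without either VEH library. Of the genes named here those with calls left without VEH replicate 2 were Tsc22d3 and Mfsd2a, while Fads2 read -5.47, Fads1 -5.09, Nrep -4.97, Socs2 -4.30, Igf1 -2.40 and Pzp -1.97.

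At CONS_180, 7 genes (1.12%) were raised and 1 (0.159%) lowered, where 0.181% and 0.0543% of all genes were (limma, Benjamini-Hochberg). The raised included AABR07044148.1 (3.84), Tsc22d3 (3.06), Mfsd2a (2.76), Nnmt (2.72), Sds (2.20) and Ass1 (1.69), which encodes argininosuccinate synthase of the urea cycle, and the lowered gene was Fads2 (-6.97). No gene was called raised or lowered without CONS_180 replicate 1, without replicate 2 or without VEH replicate 2, where Sds read 1.99, 2.41 and 1.87 and Fads2 -6.79, -7.15 and -7.12, and 9 were raised and 0 lowered without VEH replicate 1. The split was 20 raised and 8 lowered after centring on library medians and 22 and 11 with quantile normalization, and with replicate numbers as a block 4 were lowered.

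Between the infusion patterns, 0 nearest genes were higher and 2 lower in pSer2 Pol2 at PEAK_140 than at CONS_140, where 0.00604% and 0.0241% of all genes were (limma, Benjamini-Hochberg), with 104 at an unadjusted p below 0.05. These were Klf12 (-2.88, SE 0.39) and Slco1b2 (-2.31, SE 0.304). The median over all genes was -0.25, and the split was 10 higher and 4 lower after centring and 11 and 2 with quantile normalization. With replicate numbers as a block it was 8 and 11, so these counts depend on whether the libraries are paired. Without CONS_140 replicate 2 the numbers were 11 and 139, and leaving out any of the other 3 libraries gave 0 and 0, with Slco1b2 at -2.19 to -2.44. Against CONS_180, limma called 0 genes in either direction, with 42 at an unadjusted p below 0.05, where 0.0121% and 0.0181% of all genes were called.

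In RNA at 180 min, pulsatile CORT raised 35 (5.94%) and lowered 36 (6.11%) of 589 nearest genes tested, and constant CORT raised 87 (14.8%) and lowered 58 (9.85%), each against vehicle of the same pattern (edgeR, Benjamini-Hochberg). Of all 14092 genes 1.79% and 2.44% were raised and lowered by pulsatile CORT, and 4.45% and 4.75% by constant CORT. The differences between classes of neighbouring GR regions were not tested. With another GR region 28 genes were raised and 14 lowered of 245 under pulsatile CORT and 62 and 25 under constant CORT, while genes with PEAK_140-only sites and no other GR region gave 7 and 22 of 344 and 25 and 33. Genes near no GR region gave 107 raised and 270 lowered of 12243 under pulsatile CORT and 324 and 531 under constant CORT. The number lowered by pulsatile CORT was 22 without PULS_CORT replicate 1 and 20 without replicate 2, and by constant CORT 36 without CONS_CORT replicate 3.

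The patterns have separate vehicle libraries, and raised RNAs are set side by side here. Of the 35 raised by pulsatile CORT 31 were also raised by constant CORT, which is 31 of its 87, and 15 genes were lowered by both, of 36 and 58. These overlaps were not counted over all genes and are not read as particular to the sites. Sds RNA was 275 ± 24.7 CPM in PULS_CORT against 33.6 ± 18.9 in PULS_VEH and 765 ± 202 in CONS_CORT against 44.7 ± 23.5 in CONS_VEH (mean ± SD, n = 3). The CORT and vehicle libraries did not overlap, and the log2 changes were 3.02 (SE 0.413) and 4.11 (SE 0.425). Tsc22d3 read 33.1, 13.8 and 16.7 CPM in PULS_CORT, 3.80, 2.64 and 4.98 in PULS_VEH, 32.7, 28.01 and 35.3 in CONS_CORT and 3.42, 3.75 and 4.89 in CONS_VEH, with changes of 2.50 (SE 0.315) and 3.00 (SE 0.293). Mfsd2a read 247, 141 and 124 CPM in PULS_CORT, 45.5, 17.0 and 50.6 in PULS_VEH, 294, 326 and 317 in CONS_CORT and 20.2, 32.2 and 13.2 in CONS_VEH, again without overlap (2.18, SE 0.341, and 3.85, SE 0.364).

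Slc38a2 RNA rose by 1.37 (SE 0.197, adjusted p = 0.00069) under pulsatile and by 2.78 (SE 0.202, adjusted p = 2.4e-07) under constant CORT on the log2 scale (edgeR, Benjamini-Hochberg). Igfbp1, which encodes an insulin-like growth factor binding protein, had RNA of 53.9, 28.4 and 24.1 CPM in PULS_CORT, 10.7, 28.3 and 13.1 in PULS_VEH, 251, 172 and 154 in CONS_CORT and 19.3, 14.3 and 39.3 in CONS_VEH. Its groups overlapped under pulsatile CORT, with no call, and did not under constant CORT (2.98, SE 0.372, adjusted p = 5.1e-05 from edgeR). Igfbp1 was not called in the test of the difference between the patterns.

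Other raised RNAs named by size of change under pulsatile CORT were AABR07027072.1 (3.46), the phosphatase gene Ptp4a1 (2.22), the stress-response gene Tp53inp1 (1.52) and Ctdspl (1.502), and under constant CORT AABR07027072.1 (4.84) and AABR07049292.1 (3.52). AABR07015559.1 had 208 reads in PULS_CORT and 2 in PULS_VEH, a ratio of 123 per library depth (95% interval 33.5 to 1019), and 536 and 2 reads under constant CORT, a ratio of 278 (76.5 to 2299). AABR07044148.1 had 106 reads in CONS_CORT and 3 in CONS_VEH, a ratio of 36.6 (12.2 to 180). Ptp4a1 was no longer called without PULS_CORT replicate 2 (2.14) or PULS_VEH replicate 3 (1.79). These exact intervals cover counting error only.

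**Figure D5:**
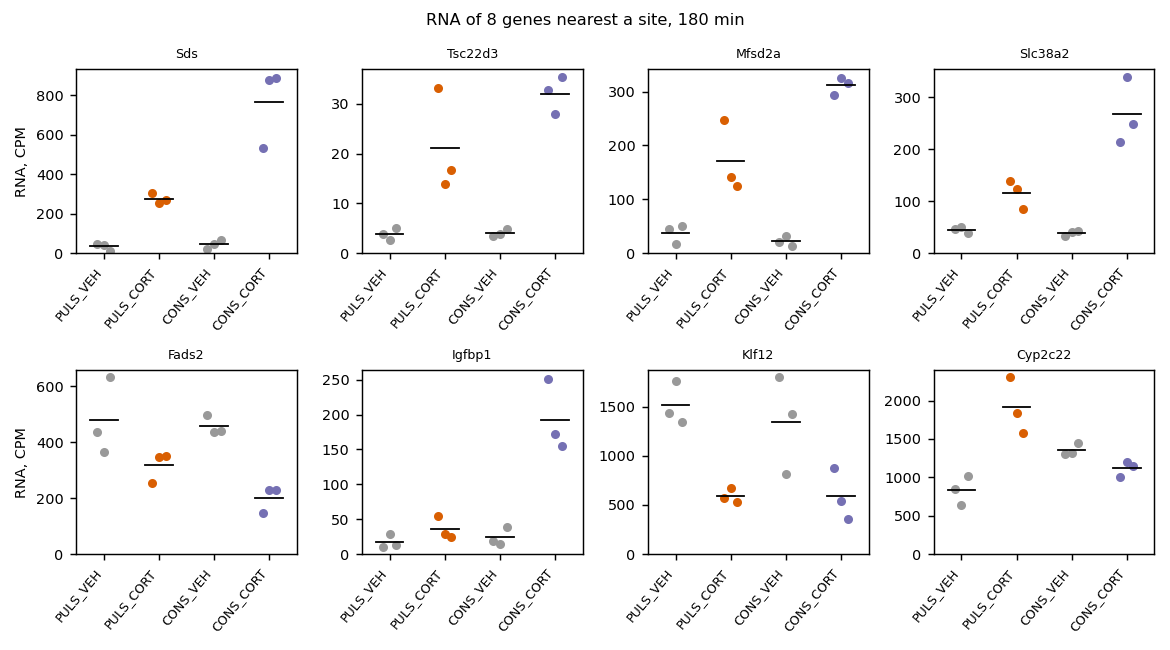
RNA (CPM, linear axes from 0) at 180 min in the 3 libraries of each vehicle and CORT group for 8 genes nearest a site. Points are libraries and lines group means, with Igfbp1 at 154 to 251 CPM in CONS_CORT and Cyp2c22 highest in PULS_CORT.

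Among lowered RNAs, Cxcl1, a neutrophil-attracting chemokine, fell from 24.8 ± 17.7 to 0.936 ± 0.482 CPM under pulsatile CORT (-4.73, SE 0.784, adjusted p = 0.0021 from edgeR) and from 7.98 ± 3.67 to 0.705 ± 0.631 under constant CORT (-3.56, SE 0.892, adjusted p = 0.014 from edgeR; mean ± SD, n = 3). PULS_VEH replicate 1, at 4.35 CPM, lay far below the other PULS_VEH libraries, which read 35.9 and 34.2, and all vehicle libraries lay above all CORT libraries. Klf12 read 575, 674 and 531 CPM in PULS_CORT, 1434, 1769 and 1349 in PULS_VEH, 877, 543 and 357 in CONS_CORT and 1802, 818 and 1429 in CONS_VEH, without overlap under pulsatile CORT (-1.35, SE 0.282) and with 1 overlapping pair under constant CORT (-1.19, SE 0.281). The activin subunit gene Inhba (-3.31), Id2 (-1.92), AABR07068043.1 (-2.34) and Wfdc21 (-2.07) fell under constant CORT, and Erc2 (-2.72), Mturn (-1.49) and Col24a1 (-1.48) under pulsatile CORT. Reads were few for Fbxl13, with 24 in PULS_VEH against 2 in PULS_CORT, a ratio of 10.2 (2.53 to 88.8), and for AABR07045400.1, with 18 against 3 under constant CORT (5.79, 1.69 to 30.7). Both calls were lost without 5 of the 6 libraries, each left out alone, and in DESeq2, with fitted changes of -2.71 to -3.59 for Fbxl13 and -1.88 to -2.45 for AABR07045400.1, which was also not called with a replicate block (-2.21). Cxcl1 under constant CORT was no longer called without CONS_CORT replicate 2 (-2.84) and Col24a1 without PULS_CORT replicate 1 (-1.29).

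A pair of lowered RNAs rested on 1 library each. Nrep fell by 2.10 under pulsatile CORT, where PULS_VEH replicate 2 read 309 CPM and the other vehicle libraries 55.8 and 56.4, and its change was -0.77 without that library and no longer called, nor was it called without any 1 PULS_CORT library (-1.91 to -2.26). Under constant CORT, where vehicle read 46.1 to 76.0 and CORT 13.6 to 16.6 CPM, Nrep fell by 2.14 (SE 0.524), a call lost without CONS_CORT replicate 3 (-2.09). Orm1 changed by -1.99 under constant CORT, with CONS_VEH replicate 2 at 5227 CPM and the other vehicle libraries at 800 and 1240, and by -0.74 without that library, no longer called, nor without CONS_CORT replicate 1 (-1.90). Wfdc21 under constant CORT also had a wide vehicle spread, at 107 ± 83.0 CPM in CONS_VEH (mean ± SD, n = 3). Its change ranged from -2.48 to -1.25 when 1 library was left out, and its call was kept. The summed stellate cell and fibroblast markers were lower with CORT, at 170 to 196 CPM in CONS_CORT against 242 to 272 in CONS_VEH and at 178 to 227 in PULS_CORT against 262 to 305 in PULS_VEH, with 1 raised and 1 lowered of 7 under constant CORT and 0 of 7 under pulsatile CORT, and their part in the lowered RNAs was not tested.

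The difference between the constant and the pulsatile response was called for 1 of the 589 genes, downward, and for 0 upward, where 0.0213% and 0.0071% of all genes were called (edgeR, Benjamini-Hochberg), with 119 at an unadjusted p below 0.05. DESeq2 called 14 upward and 10 downward, and without CONS_VEH replicate 1 edgeR called 27 and 8. The gene was Cyp2c22, a cytochrome P450 of the multigene Cyp2c family, in which reads can be split among near copies. Its RNA was 1909 ± 371 CPM in PULS_CORT against 835 ± 190 in PULS_VEH, and 1116 ± 98.4 in CONS_CORT against 1354 ± 75.5 in CONS_VEH (mean ± SD, n = 3). It rose under pulsatile CORT (1.19, SE 0.168) with no overlap, and was lower in all 3 CONS_CORT than in all 3 CONS_VEH libraries without a call, a difference of responses of -1.47 (SE 0.235, adjusted p = 0.042 from edgeR). That call was lost without 7 of the 12 libraries, each left out alone, with values of -1.31 to -1.59. The GR site of Cyp2c22, 9437 b upstream, was among the few with high nadir values, 2.59 and 3.22 against 0.73 and -0.76 in VEH (2.92, SE 0.77, adjusted p = 0.054 from limma).

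Pol2 and RNA were both tested for 519 of the nearest genes. The overlaps of calls below were not counted over all genes, so they are not read as particular to the sites. Of 19 raised in pSer2 Pol2 at PEAK_140 and 35 raised in RNA by pulsatile CORT, 12 were in both lists, among them, named after their values were seen, AABR07027072.1, Aass, Ass1, LOC100365958, LOC299282, Mfsd2a, Pptc7, Sds, Slc38a2, Tp53inp1 and Tsc22d3. Of 15 lowered in pSer2 Pol2 and 32 lowered in RNA by pulsatile CORT 1, Klf12, was in both. With RNA under constant CORT the counts were 14 of 19 and 82 raised, and 11 of 15 and 55 lowered, including Cyp51, Fads1, Fads2, Fdft1, Nfe2l2, Pdk4, Pgpep1, Slco1b2 and Ugp2 beside Klf12. No gene was called in opposite directions in Pol2 at PEAK_140 and in RNA under pulsatile CORT. Orm1 was raised in Pol2 at PEAK_140 and lowered in RNA under constant CORT, a call that rested on the 1 vehicle library given above.

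In the gene lists, of 3 glucose production genes near a site (Fbp1, Pdk4, Sds) Sds was raised and Pdk4 lowered in pSer2 Pol2 at PEAK_140, Sds was raised in RNA by both patterns and Pdk4, which restrains pyruvate oxidation, was lowered by constant CORT. The medians of the 3 were -0.14 in Pol2 and 0.13 and -0.27 in RNA under pulsatile and constant CORT, where the medians of all genes were -0.05, -0.01 and -0.01. Over the whole list, near a site or not, 1 was raised and 1 lowered of 14 tested in Pol2, 5 and 0 of 13 in RNA under pulsatile CORT and 5 and 2 under constant CORT. Of 5 genes of amino acid breakdown and the urea cycle (Ass1, Gls2, Kynu, Sds, Tat), Ass1 and Sds were raised in Pol2 (list median 0.56) and Ass1, Sds and Tat in RNA by both patterns (medians 1.18 and 1.02). Tat, which encodes tyrosine aminotransferase, changed in RNA by 1.41 (SE 0.295) and 1.82 (SE 0.298), with its site at -3679 b. The whole list gave 8 raised and 2 lowered of 25 in Pol2, and 15 and 0 and then 13 and 0 of 24 in RNA under the pulsatile and the constant pattern. Of the 4 genes near a site in the lipid and sterol list (Abca1, Fads1, Fads2, Insig1), Fads1 and Fads2 were lowered in Pol2 (median -2.74), 0 were called in RNA under pulsatile CORT (median -0.14), and under constant CORT Insig1 was raised and both desaturases lowered (median -0.59). The list leaves out Cyp51 and Fdft1, which are also nearest a site and were lowered in Pol2 at PEAK_140 and in RNA under constant CORT. Of the whole list of 32, 1 was raised and 11 lowered in Pol2 at PEAK_140, 1 and 0 in RNA under pulsatile CORT and 4 and 17 under constant CORT.

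Of 4 known GR targets near a site (Bcl6, Igfbp1, Tat, Tsc22d3), Tsc22d3 was raised in Pol2 (median 0.89), Tat and Tsc22d3 in RNA under pulsatile CORT (1.23) and Igfbp1 besides under constant CORT (2.40). The whole list gave 7 raised and 0 lowered of 22 in Pol2, and 7 and 0 and then 13 and 2 of 19 in RNA. Of 6 genes of insulin, growth hormone and growth (Egfr, Igf1, Igfbp1, Pik3r1, Prlr, Socs2) 0 were called in Pol2 at PEAK_140 (median 0.44), Pik3r1, a regulatory subunit of PI3-kinase, was raised in RNA by pulsatile CORT (median 0.53), and Egfr, Igfbp1 and Pik3r1 were raised by constant CORT (median 0.61). Of the whole list 0 were called of 20 in Pol2, and 2 were raised and 2 lowered and then 5 and 2 of 19 in RNA. The clock genes Hlf and Rora and the hepatocyte factor genes Foxa1, Hnf4a and Nr1h4 were called neither in Pol2 at PEAK_140 nor in RNA, with medians of 0.14 and 0.16 in Pol2, -0.24 and -0.03 in RNA under pulsatile CORT, and 0.37 and -0.23 under constant CORT. Of all clock genes listed 1 was raised and 0 lowered of 20 in Pol2, and 2 and 0 and then 2 and 3 of 18 in RNA, and of all hepatocyte factors 0 were called of 19 in Pol2, and 1 and 2 and then 3 and 1 of 19 in RNA.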

How the data were processed

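GR and pSer2 Pol2 ChIP-Seq and RNA-Seq were made from rat liver. For both ChIP assays the deposited values are log2 values per region and library, for which the authors trimmed reads to 50 b (Trimmomatic 0.36), aligned them to rn6 with bowtie2, removed duplicates with SAMtools, counted tags per region with HOMER 4.9.1, subtracted input tags and normalised with DESeq2. GR peaks were called in each replicate, merged where replicates overlapped and filtered by IDR into 1 list per group, and the lists were merged into regions and scaled to tags in binding regions per the methods, although the file header names total tags. pSer2 regions were Ensembl transcripts limited to 10 kb from the TSS and scaled to total tags. Values are drawn towards the region mean where tags are few. The deposited RNA counts were whole reads per gene, aligned by the authors with STAR and counted with featureCounts 1.6.2. Deposited tables of the authors' own fold changes and p-values were not used. Of 22929 RNA rows deposited, 22764 had a gene identifier that also occurs in the ChIP data, from which names were taken. Library sizes came from all genes with more than 10 reads, named or not.

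Sites were chosen by overlap of at least 1 b with peaks, after BED starts were moved to 1-based positions. limma 3.58.1 with a variance trend was fitted to all 10 libraries over 3981 GR regions and over the 38315 of 60999 pSer2 regions that vary. A gene was called in pSer2 where any of its regions was, and was shown by its called region with the largest change or else the one with the highest mean. edgeR 4.0.16 (quasi-likelihood, TMM) was fitted to 12 libraries over 14092 genes with more than 10 reads in all. Calls needed a two-sided Benjamini-Hochberg adjusted p below 0.05 over all features and a change over 1.5-fold (log2 0.585). Work was done in R 4.3.3 and Python 3.11.15 with pandas 2.3.3 and numpy 2.4.6.

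Named sites were the 8 with the largest PEAK_140 minus VEH difference, the 6 with the largest called nadir difference and 2 each side of the distance limit. Named genes were, by size of change among those called, up to 10 each way in pSer2 Pol2 at PEAK_140 over VEH, up to 6 each way in its other comparisons and up to 8 each way in RNA, with the called genes of the lists. Promoters shown were chosen after the values were seen, in place of the sites' own sequences. The sites, lists and naming rule were chosen with earlier results of these data known. Alternatives were centring on library medians, quantile normalization, no variance trend, only the libraries compared, leaving out features whose mean was below the 0.25 quantile, an adjusted p below 0.01, a distance over 5000 b, 1 region per gene, DESeq2 1.42.0, no read filter, a replicate block and leaving out each library. Deviations from group means of same-numbered pSer2 libraries correlated in 6 of 6 pairs (0.155 to 0.553), whereas for GR (-0.027 to 0.072) and RNA (-0.049 to 0.081) they did not. Pairing of the pSer2 libraries by number is inferred from these correlations alone. Counts, SEs and p-values are from fits without a block except where a block is named. On simulated data with 200 changed features, pSer2 differences of 1 to 2 between PEAK_140 and VEH were recovered for 54% and RNA differences of 1 to 2 under pulsatile CORT for 71%. Some of the genes and sites that the rule names are not reported here.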

Additional observations from a re-analysis of the deposited data

Results flagged for a closer look

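Elongating Pol2 over the nearest genes differed between the peak and the nadir of pulsatile CORT in a direct test for 15 genes higher and 3 lower at the peak (limma, Benjamini-Hochberg), of which those with the largest differences are named. Higher at PEAK_140 than at NADIR_180 were AABR07044148.1 by 4.68, Insig1 by 3.18, Sds by 3.15, Tsc22d3 by 3.00, Mfsd2a by 2.63 and AABR07048475.1 by 2.30 on the log2 scale, and lower were Klf12 (-3.76), Slco1b2 (-2.21) and Pzp (-1.54). For Insig1 the difference came from low nadir libraries, at 7.61 and 7.49 against 10.22 and 10.01 in VEH, rather than from a PEAK_140 value far from VEH (10.62 and 10.84). For Klf12 and Slco1b2 it came from low PEAK_140 libraries.

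Klf12 (-2.88) and Slco1b2 (-2.31) were also lower at PEAK_140 than at CONS_140, in a test that shares the PEAK_140 libraries with the previous one. In RNA the constant and the pulsatile response of Cyp2c22 differed by -1.47 (edgeR, Benjamini-Hochberg). Causes of these differences were not tested.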

How the results depend on the processing

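Of the alternatives for single named genes, 329 of the RNA values kept direction and call and 39 lost the call, and 342 of the pSer2 Pol2 values kept both, 214 lost the call and 5 changed direction. The 5 were all Klf12, whose shown region changes when another is called or none is. Against NADIR_180 it read 0.23 with only the 4 libraries compared, 0.23 with the region of highest mean, 0.40 without PEAK_140 replicate 1 and 0.38 without NADIR_180 replicate 1, and against CONS_140 0.075 without PEAK_140 replicate 1. Leaving out 1 library gave it -3.73 to 0.40 against NADIR_180 and -3.23 to 0.075 against CONS_140. Except where given, the cause of a change was not tested.

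Centring on library medians removes a rise shared by most GR regions, and turned the median GR difference from VEH to -0.82 (PEAK_140), -0.94 (NADIR_180), -1.94 (CONS_140) and -1.88 (CONS_180). The 11 sites raised at the nadir became 0 after centring, 2 with quantile normalization (3 lowered), 0 with only 4 libraries, 17 without features of low mean (below the 0.25 quantile), 0 at an adjusted p below 0.01 and 6 beyond 5000 b, where fewer sites were counted.

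For pSer2 Pol2 (raised, lowered), centring gave 37 raised at PEAK_140 over VEH, 3 lowered at NADIR_180, 32 and 14 at CONS_140, 20 and 8 at CONS_180, 31 and 8 for PEAK_140 over NADIR_180, 10 and 4 for PEAK_140 over CONS_140, and 2 lowered against CONS_180. Quantile normalization gave 40 and 23 at PEAK_140, 31 lowered at CONS_140, 22 and 11 at CONS_180, 31 and 9 against NADIR_180, 11 raised against CONS_140 and 1 lowered against CONS_180. With only the 4 libraries compared, which leaves fewer degrees of freedom, counts were 0 and 0 at PEAK_140, 0 lowered at NADIR_180, 0 and 0 at CONS_140, 1 and 2 at CONS_180, 0 and 0 against NADIR_180 and 0 lowered against CONS_140. Without features of low mean they were 1 and 4 at NADIR_180, 31 raised at CONS_140, 18 and 5 at CONS_180, 23 and 5 against NADIR_180, 7 and 6 against CONS_140 and 2 and 1 against CONS_180. Without a variance trend 3 were lowered at CONS_140, 0 at CONS_180, 1 against CONS_140 and 1 against CONS_180. Taking the region with the highest mean left 0 lowered against CONS_140, and sites beyond 5000 b left 9 lowered at PEAK_140 and 21 raised in RNA under pulsatile CORT.

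With the replicate block, 23 genes were raised and 21 lowered in pSer2 Pol2 at PEAK_140 over VEH, 29 and 8 at CONS_140 and 9 and 4 at CONS_180. PEAK_140 over NADIR_180 gave 18 and 4, and PEAK_140 over CONS_140 gave 8 and 11. In the RNA difference of responses 1 was raised, while among named genes the block ended the RNA call of AABR07045400.1 (-2.21) and no other. The RNA difference of responses gave 14 raised and 10 lowered in DESeq2 and 19 and 10 with no read filter.

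Leaving out 1 library gave median GR differences from VEH of 3.65 to 4.02 (PEAK_140), 0.14 to 0.64 (NADIR_180), 1.72 to 2.93 (CONS_140) and 2.15 to 2.45 (CONS_180), and 1 to 28 sites raised and 0 to 0 lowered at the nadir. In pSer2 Pol2 it gave 2 to 12 raised and 0 to 4 lowered at PEAK_140, 0 to 4 and 0 to 1 at NADIR_180, 2 to 110 and 0 to 8 at CONS_140, 0 to 9 and 0 to 0 at CONS_180, 0 to 9 and 0 to 6 against NADIR_180, 0 to 11 and 0 to 139 against CONS_140, and 0 and 0 against CONS_180. In RNA it gave 27 to 38 raised and 20 to 31 lowered under pulsatile CORT, 76 to 91 and 36 to 55 under constant CORT, and 0 to 27 and 0 to 8 for the difference of responses. An arm left with 1 library was assumed to vary like the other groups.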

Other observations

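Kng1, the kininogen gene, had pSer2 Pol2 values of 9.69 and 9.37 in VEH, 10.83 and 11.69 at PEAK_140, 11.04 and 11.10 at NADIR_180, 9.49 and 9.44 at CONS_140, and 9.81 and 9.80 at CONS_180. It is named after its values were seen, as a gene whose pulsatile libraries lay above both the vehicle and the constant libraries at the nadir as well as at the peak (PEAK_140 difference from VEH 1.73). Kng1 was not called at NADIR_180 over VEH or at PEAK_140 over CONS_140 or CONS_180, where limma called 0 of 627 nearest genes as higher. NADIR_180 was not tested against CONS, so a pattern particular to pulses is not shown.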
